A study of Cricetulus griseus with 8 samples.

Results

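Caspases are cysteine proteases that dismantle dying cells, and their activity is set by adaptors that gather them and by inhibitors that hold them back. In the death receptor arm the adaptor Fadd recruits the initiator Casp8, and Cflar (c-FLIP), a relative of Casp8 without protease activity, competes for the same platform. In the mitochondrial arm cytochrome c lets Apaf1 assemble the apoptosome, which activates Casp9. Casp2 is an initiator activated by the PIDDosome, Casp6 is an effector that cleaves lamins, and Xiap binds and blocks caspases, Casp9 among them. A phagocyte that takes up a dying cell takes up a cell in which these proteases are active, while its own set normally stays inactive. RNA measures transcripts only, and neither caspase protein nor caspase cleavage was measured in these files.

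These 8 genes are described here in the 26776 named genes of the table. They were chosen by symbol, which found 7 of the 8. The other one, Casp9, stands in the table under the number LOC100689370, which the RefSeq gene table for the Chinese hamster pairs with Casp9, and it is reported with the others. All 8 averaged at least 10 normalized counts, the filter for testing. In the RefSeq assembly of the species, which may not be the build the reads were counted on, Casp8, Cflar, Fadd, Xiap and Casp2 overlap no other gene, Casp6 overlaps the opsin gene Opn5, and Casp9 overlaps an uncharacterized locus. Apaf1 was not found there under that symbol. Among pathway genes named below, Tnfrsf21 and Cradd overlap 4 other genes each, Il18 overlaps 2, and Lmna, Traf2, Cyld and Casp4 overlap 1 each. The strand setting of the counting is not given in the sources used here, so reads of overlapping genes may be shared.

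The cells were LR73, a phagocytic Chinese hamster line labelled as fibroblast and kept in alpha-MEM with 10% serum. The 4 libraries called alone came from LR73 cells without added cells, and the 4 libraries called co-culture from LR73 cells cultured with apoptotic Jurkat cells, a human lymphoma T cell line. The Jurkat cells had been exposed to UV-C light (1500 mJ in the labels, with no area given) and kept for 4 h before they were added, and the length of the co-culture is not given. The design text describes the libraries of a group as biological replicates, and no source says how the cultures were separated, so the p-values measure the spread between these libraries.

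Each library held between 22.7 and 29.7 M (mega) reads of named genes. Alone library 1 stood apart from the rest, at -25.1 on the leading principal component against -9.1 to -5.7 for the other alone libraries, so values that rest on it are given with and without it. Of 15 matched fibroblast markers 12 reached a mean of 10 normalized counts, Vim, Fn1, Sparc and Col6a1 among the highest, while Thy1 had no reads and the type I collagen genes Col1a1 and Col1a2 had 4 and 10 reads over all libraries. The summed fibroblast markers came to 1.628e+05 to 1.668e+05 normalized counts alone and 1.891e+05 to 1.911e+05 with apoptotic cells. This sum follows the most abundant markers and was not a rise of the whole list. By the test described below 2 of the 12 were higher and 1 lower (25%, beside 11.7% of all genes tested). The median log2 fold change of the 12 was 0.03. RNA of the Jurkat cells could be counted under hamster genes. Among the 24 markers of T cells that had at most 5 reads over the alone libraries, 14 gained reads with apoptotic cells and 2 lost some, and the summed level of the 24 was 0.834 to 6.09 normalized counts in the alone libraries and 14.3 to 19.6 in the co-cultures. Over the whole list of 29 matched T cell markers the sum was 828.4 to 956.2 alone and 715.2 to 780.7 with apoptotic cells, carried by Themis and Lat. Of the genes that define T cells, Cd3d, Cd3g and Cd2 had no reads in any library, while Cd3e went from 0 to 2 reads in all, Cd247 from 1 to 4, Zap70 from 0 to 5, Lck from 0 to 9 and the leukocyte gene Ptprc from 3 to 14. Other markers of the list went down: Themis from 2657 to 1962 reads, Cd28 from 118 to 68 and Cd27 from 83 to 52. Of 5 tested T cell markers 0 were called higher and 2 lower, Themis and Cd28 (limma adjusted p = 0.0112 and 0.0385). The call of Cd28 held in 2 of 8 fits with a library left out.

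With apoptotic cells Casp8 was the 1 gene of the 8 that rose, by 24.9%, and none of the 8 fell. The other 7 did not pass the test, which was limma on log2(normalized count + 1) with Benjamini-Hochberg adjustment over all 13494 genes tested and a threshold of 0.05. Over all genes tested 6.36% were higher and 5.31% lower by this test, 11.7% in all, so 1 of 8 is close to the background share. The count of 0 falling genes was the same with edgeR and with DESeq2 on the recovered reads, and no gene of the 8 was lower at an unadjusted p under 0.05. The median log2 fold change of the 8 was 0.04, against 0.001 for all genes tested.

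Casp8, the initiator that death receptors activate, had 581.1, 679.5, 633.3 and 654.7 normalized counts in alone libraries 1 to 4 and 825.6, 797.3, 801.2 and 756.3 in co-culture libraries 1 to 4. Every co-culture library was above every alone library, which was also so for 1543 of the 13494 genes tested. A separation in either direction was seen in 21.2% of all genes tested. The means were 637 ± 41.8 and 795 ± 28.7 normalized counts (SD, n = 4 each), a log2 change of 0.32 ± 0.06 (SE, 95% interval 0.20 to 0.44, limma adjusted p = 0.00524). Of all genes tested, 8.99% changed more in size on the log2 scale. Casp8 kept its call with each of the 8 libraries left out in turn, with log2 fold changes of 0.28 to 0.35 and limma adjusted p of 6.76e-05 to 0.0259. In the authors' deposited table its log2 fold change was 0.287 with an adjusted p of 0.000106. DESeq2 on the recovered reads gave 0.319 for Casp8 and 0.237 for Fadd, where the deposited value of Fadd was 0.163. The deposited fold changes are therefore not on the same scale as the limma values. The part of Jurkat RNA in this rise, beside the T cell marker counts given above, was not tested. In a bulk sample more cells of a kind and more RNA per cell cannot be told apart.

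Fadd, the adaptor that links death receptors to Casp8, had 200.4, 333.5, 322.7 and 313.4 normalized counts in the alone libraries and 330.9, 362.7, 341.8 and 344.4 in the co-cultures. Alone library 1 was far below the other 7, and the groups overlapped through alone library 2. The log2 change was 0.27 ± 0.14 (SE, 95% interval -0.05 to 0.58, limma adjusted p = 0.26), with 0.09 and an adjusted p of 0.297 without alone library 1. Neither value passed.

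Cflar, the inhibitor that competes with Casp8, had 982.8, 1028, 1016 and 1076 normalized counts in the alone libraries and 1119, 1096, 1039 and 1048 in the co-cultures. The groups overlapped, with alone library 4 above co-culture libraries 3 and 4. Its means were 1026 ± 38.4 and 1075 ± 38.4 normalized counts (SD, n = 4 each), a log2 change of 0.07 ± 0.04 (SE, limma adjusted p = 0.353). The 95% interval of -2.01 to 12.2% does not reach the 24.9% of Casp8. Neither Casp8 nor Cflar overlaps another gene in the RefSeq assembly.

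**Figure D1:**
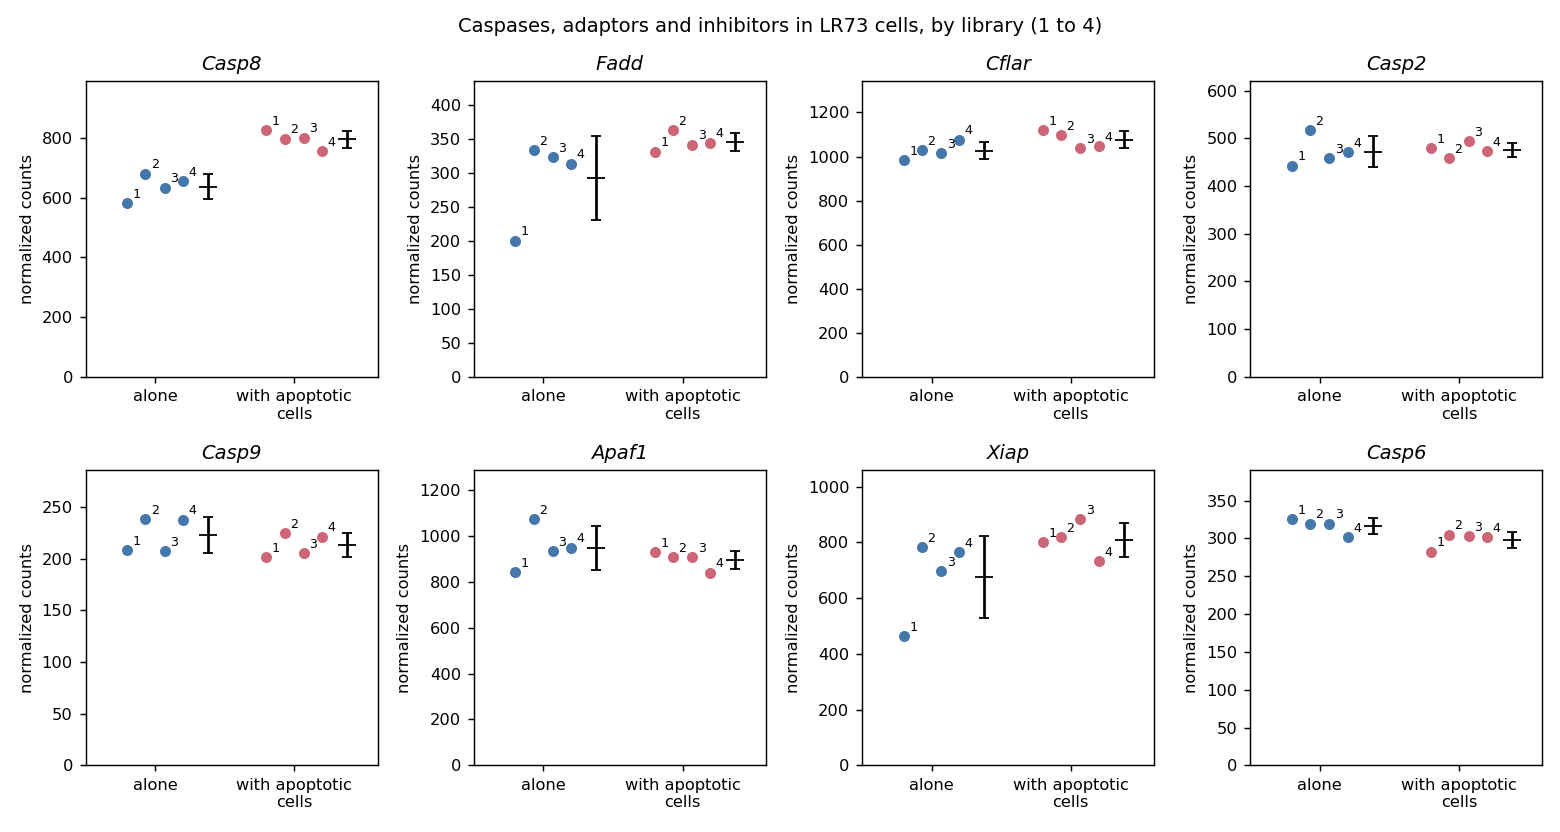
Normalized counts (linear axis from 0) in each library for the 8 genes, with library numbers beside the points and bars for each group's mean and SD (4 libraries). Casp8 goes from 581.1 to 679.5 alone to 756.3 to 825.6 with apoptotic cells without overlap, and in Fadd and Xiap alone library 1 lies far below the other libraries.

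Ratios of transcripts within a library do not depend on how the libraries were scaled, and they were described without a test. The Cflar to Casp8 ratio of normalized counts, inhibitor to initiator, was 1.69, 1.51, 1.6 and 1.64 in the alone libraries and 1.36, 1.37, 1.3 and 1.39 in the co-cultures. All co-culture ratios were below all alone ratios, with means of 1.61 ± 0.076 and 1.35 ± 0.04 (SD, n = 4 each) and a difference of -0.25 on the log2 scale, -0.23 without alone library 1. That difference restates the log2 changes of 0.07 for Cflar and 0.32 for Casp8 and is no separate result. How often other gene pairs separate in this way was not computed. Counts were not corrected for transcript length, so a ratio of counts is not a ratio of molecules. The Fadd to Casp8 ratio overlapped between the groups, at 0.345 to 0.510 alone and 0.401 to 0.455 with apoptotic cells. Its difference was -0.06 on the log2 scale and -0.18 without alone library 1.

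**Figure D2:**
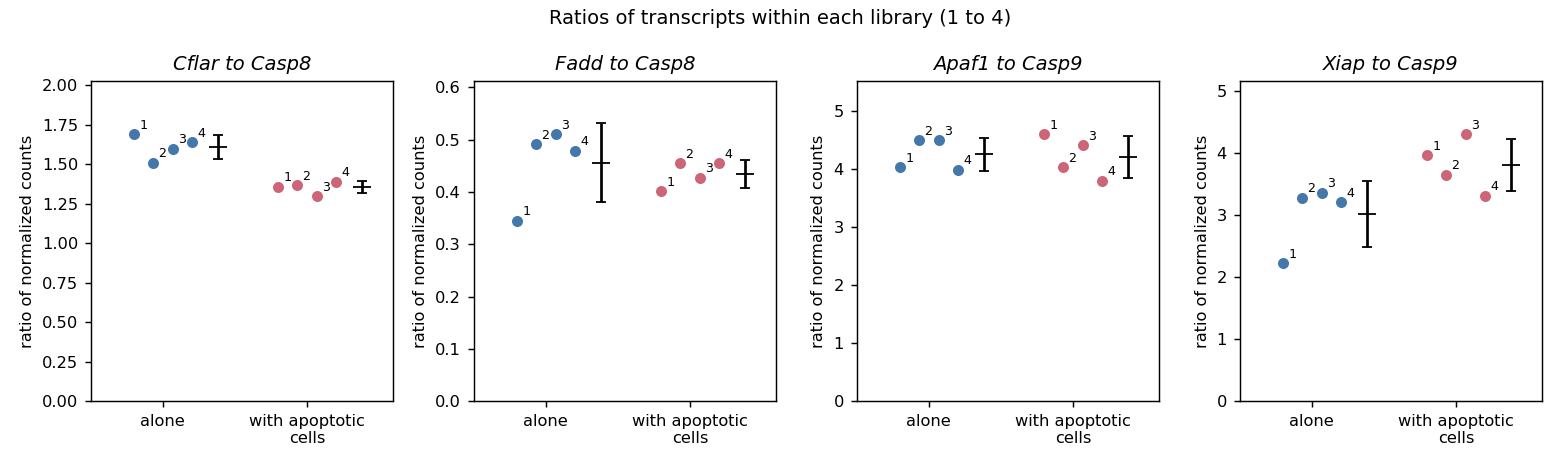
Ratio of normalized counts of gene pairs within each library (linear axis from 0), with library numbers beside the points and bars for each group's mean and SD (4 libraries). Cflar to Casp8 is lower in all 4 co-cultures, while Fadd to Casp8, Apaf1 to Casp9 and Xiap to Casp9 overlap.

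In the mitochondrial arm neither gene passed the test with all libraries. Casp9, the apoptosome's initiator, had 208.0, 238.4, 207.0 and 237.9 normalized counts in the alone libraries and 201.5, 224.5, 205.5 and 221.1 in the co-cultures. The groups overlapped, and the log2 change was -0.06 ± 0.08 (SE, limma adjusted p = 0.635) with a 95% interval of -14.7 to 7.53%. Apaf1, the scaffold of the apoptosome, had 840.4, 1073, 932.7 and 948.4 normalized counts in the alone libraries and 927.4, 907.8, 906.7 and 839.5 in the co-cultures. Alone library 1 was at the level of the lowest co-culture, and alone library 2 was the highest of all 8. The log2 fold change of Apaf1 was -0.08 (SE 0.07, limma adjusted p = 0.496), and without alone library 1 it was -0.14 with an adjusted p of 0.042. Apaf1 was then the 1 gene of the 8 called lower and Casp8 the 1 called higher, where 12.5% of 13502 genes tested were lower, 13.4% higher and 26% called in all. Over the alternatives tried the adjusted p of Apaf1 ran from 0.042 to 0.871. The Apaf1 to Casp9 ratio was 4.26 ± 0.28 alone and 4.21 ± 0.36 with apoptotic cells (SD, n = 4 each), with overlapping groups.

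Casp2, the initiator of the PIDDosome, had 442.5, 516.9, 458.7 and 470.6 normalized counts in the alone libraries and 479.0, 457.8, 493.5 and 472.6 in the co-cultures. The co-cultures lay within the range of the alone libraries. The log2 change was 0.01 ± 0.06 (SE, limma adjusted p = 0.91), its 95% interval ran from -7.72 to 10.3%, and the sign turned when alone library 1, alone library 3 or co-culture library 3 was left out. Casp6, the lamin-cleaving effector, had 325.7, 319.3, 319.7 and 302.0 normalized counts in the alone libraries and 282.5, 305.2, 303.3 and 301.4 in the co-cultures. Its groups overlapped, with alone library 4 below co-culture libraries 2 and 3, and the log2 change was -0.09 ± 0.06 (SE, 95% interval -0.21 to 0.04, limma adjusted p = 0.345).

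Xiap, which inhibits Casp9, had 463.4, 782.9, 696.2 and 764.3 normalized counts in the alone libraries and 800.0, 818.3, 883.7 and 732.9 in the co-cultures. As in Fadd, alone library 1 was far below the rest, and alone libraries 2 and 4 lay above co-culture library 4. The log2 change was 0.28 ± 0.14 (SE, 95% interval -0.04 to 0.60, limma adjusted p = 0.24), and 0.11 with an adjusted p of 0.143 without alone library 1. The fold change of Xiap was close to the 0.32 of Casp8, with an SE of 0.14 against 0.06. The Xiap to Casp9 ratio was 3.02 ± 0.53 alone and 3.81 ± 0.42 with apoptotic cells (SD, n = 4 each), with overlapping groups and a log2 difference of 0.35, or 0.21 without alone library 1.

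**Figure D3:**
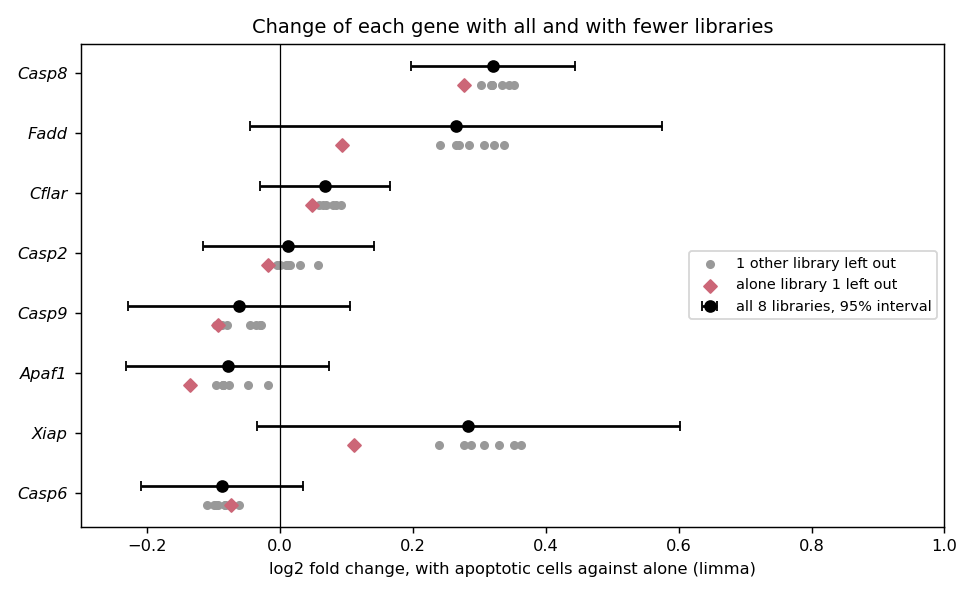
Log2 fold change with apoptotic cells against alone (limma, horizontal axis) for the 8 genes, with all libraries and the 95% interval in black, and with 1 library left out in grey, or in red where alone library 1 was left out. Casp8 stays between 0.28 and 0.35, while Fadd goes from 0.27 to 0.09 and Xiap from 0.28 to 0.11 without alone library 1.

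The 8 genes differed in how evenly the alone libraries carried them. The coefficient of variation over the alone libraries was 21.2% for Fadd and 21.7% for Xiap, 10.1% for Apaf1 and 3.23 to 7.95% for the other 5, while over the co-cultures it was 3.11 to 7.67% for all 8. Alone library 1 lay 0.69 below the rest of its group on the log2 scale in both Fadd and Xiap. A deviation of that library at least as large was seen in 3.43% of genes tested for Fadd and in 3.42% for Xiap. Casp8 lay 0.17 below in that library and Apaf1 0.23 below, sizes that 48.4% and 36.3% of genes reached. Across the 8 libraries, which fall into both conditions and share their scaling, the log2 levels of Fadd and Xiap had a Pearson r of 0.94, those of Casp8 and Cflar 0.76, and those of Casp8 and Casp9 -0.17. The r of Fadd and Xiap includes alone library 1, which was far below the others in both genes. The correlations were not computed without that library, so how far they rest on it is not known.

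The genes whose levels followed Casp8 most closely over the 8 libraries, out of 8938 genes that averaged at least 100 normalized counts and have a symbol other than a LOC-type placeholder, were Gen1, a Holliday junction resolvase (Pearson r = 0.994), Col5a2, a chain of type V collagen (0.992), and Plod1, a lysyl hydroxylase of collagen (0.991). Gen1 had 714 to 789 normalized counts in the alone libraries and 860 to 913 in the co-cultures, and rose by 0.24 on the log2 scale (limma adjusted p = 0.00881). Col5a2 rose by 0.18 (limma adjusted p = 0.00786). Plod1 had a log2 fold change of 0.10 and did not pass (limma adjusted p = 0.0627). Gen1, Col5a2 and Plod1 were the closest of 8938 genes, picked over both conditions together, and Casp8 itself separated the groups. High correlations and a rise with apoptotic cells are therefore partly built into the choice. The fold changes and adjusted p of these genes are no separate result. Whether they follow Casp8 within a condition was not tested.

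Of the other caspases described here, the inflammatory caspase Casp1 had 1 read in all libraries together. Casp14, and Casp4 under its LOC number, had 0 reads, which allows up to 0.0287 reads per M reads in the alone group and 0.0310 in the co-cultures by counting error alone.

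Other genes of the pathway came from 6 lists, with 54 of 60 genes found and 44 tested. Casp4 was matched by RefSeq gene ID, Pidd1, Septin4 and Gsdme by older symbols, and the rest by symbol. Of these 6 were higher and 9 lower by limma, 34.1% in all, beside the 11.7% of all genes tested. Their median log2 fold change was -0.03. The count of lower genes was 4 without alone library 3, 5 without co-culture library 1 or 2, 3 without co-culture library 3 and 4 without co-culture library 4. Over all genes tested the lower calls went from 716 to 386 without alone library 3 and to 356, 391, 380 and 414 without co-culture libraries 1 to 4. Without alone library 1 there were 10 higher and 11 lower, 47.7% in all beside the 26% of all genes in that fit. The lists had been chosen with earlier results of these data known, and this share was not tested.

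Among death receptors, their ligands and adaptors, 3 of 14 tested genes rose and 4 fell, 50% in all beside 11.7% of all genes tested. Without alone library 1 the shares were 57.1% and 26%. The share of this list was not tested. Tnfaip3 (A20), a ubiquitin-editing enzyme that restrains receptor signalling, rose from 2161 ± 32.0 to 2537 ± 62.5 normalized counts (SD, n = 4 each, limma adjusted p = 0.00182). Tnfrsf21 (death receptor 6) rose from 1611 ± 46.8 to 1882 ± 37.5 (limma adjusted p = 0.00346). Fas, the receptor that recruits Fadd and Casp8, had 921, 830, 840 and 851 normalized counts in the alone libraries and 781, 750, 718 and 702 in the co-cultures. Fas fell by 0.22 ± 0.05 in log2 terms (SE, limma adjusted p = 0.0203), with all co-cultures below all alone libraries, and lost its call without co-culture library 2, 3 or 4 (adjusted p = 0.0509, 0.0665 and 0.068). A downward separation of this kind was seen in 1311 of 13494 genes tested. Traf2, an adaptor of TNF receptors, fell by 0.16 (limma adjusted p = 0.0262), and lost that call on leaving out alone 3, co-culture 2, co-culture 3 or co-culture 4 (adjusted p = 0.0656 to 0.0849). The other 3 called genes of the list, named after their values were seen, were the kinase Ripk1 (0.15), which rose, and the deubiquitinase Cyld (-0.19) and the necroptosis effector Mlkl (-0.19), which fell. The call of Ripk1 held in 1 of 8 fits with a library left out, and those of Cyld and Mlkl in 2 of 8 each. The ligand Faslg had 1 read and Tnf 0 reads, so neither was detectable at this depth beyond that.

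None of the 5 tested apoptosome and PIDDosome partners passed by limma, edgeR or DESeq2, and 2 of them, Cradd and Aifm1, had an unadjusted limma p under 0.05. The one with the smallest adjusted p was Cradd (RAIDD), the adaptor of Casp2 in the PIDDosome, at 293 ± 7.40 and 330 ± 16.6 normalized counts (SD, n = 4 each, log2 fold change 0.17, limma adjusted p = 0.0846). It passed without alone library 1 (adjusted p = 0.0383), while Pidd1, found under an older symbol, had a log2 fold change of 0.01 (adjusted p = 0.882). Of 8 inhibitors of apoptosis proteins and their antagonists none passed by limma, edgeR or DESeq2, and 2, Xaf1 and Birc6, had an unadjusted limma p under 0.05. All 4 genes passed without alone library 1, so that 40% of the first list and 25% of the second were called in that fit, beside 26% of all genes. Xaf1, an antagonist of Xiap, had the smallest adjusted p in that list, with 18.0, 14.2, 16.2 and 23.8 normalized counts in the alone libraries and 9.88, 13.3, 3.30 and 5.87 in the co-cultures. The co-cultures were all below the alone libraries, as in 1311 of 13494 genes tested. The log2 change of Xaf1 was -1.19 ± 0.36 (SE, limma adjusted p = 0.0564) and rests on low counts, and without alone library 1 the adjusted p was 0.017. Birc6, a large inhibitor of apoptosis protein chosen here after its values were seen, showed the low alone library 1 of Xiap again, 0.59 below the rest of its group, with log2 fold changes of 0.31 (limma adjusted p = 0.161) with all libraries and 0.16 (0.0215) without it.

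Of 14 tested substrates that caspases cut during execution, 3 rose and 3 fell, 42.9% in all beside 11.7% of all genes tested. Without alone library 1 these were 50% and 26%, and the share of the list was not tested. The nuclear lamina genes Lmna and Lmnb1 rose from 22060 ± 400 to 25690 ± 133 and from 4465 ± 110 to 5110 ± 76.4 normalized counts (SD, n = 4 each, limma adjusted p = 0.000707 and 0.00322). The kinase gene Pak2 rose by 0.12 on the log2 scale (limma adjusted p = 0.0204), a call lost on leaving out alone 3 or any 1 co-culture (adjusted p = 0.0554 to 0.0716). Panx1, a channel that caspases open to release find-me signals, fell from 1439 ± 71.2 to 1211 ± 42.9 normalized counts (limma adjusted p = 0.00736). The other falls, named after their values were seen, were those of the nuclease gene Dffb (-0.16) and of Bid (-0.15), which links Casp8 to mitochondria. Each of those calls held in 2 of 8 fits with a library left out. The inflammasome sensor Nlrp3 had a log2 fold change of -0.33 (limma adjusted p = 0.111), while Gsdmd, the pore-forming gasdermin, and the cytokine gene Il18 fell. Gsdmd went from 235 ± 18.5 to 174 ± 13.5 and Il18 from 756 ± 54.2 to 547 ± 26.9 normalized counts (SD, n = 4 each, limma adjusted p = 0.00831 and 0.00114).

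**Figure D4:**
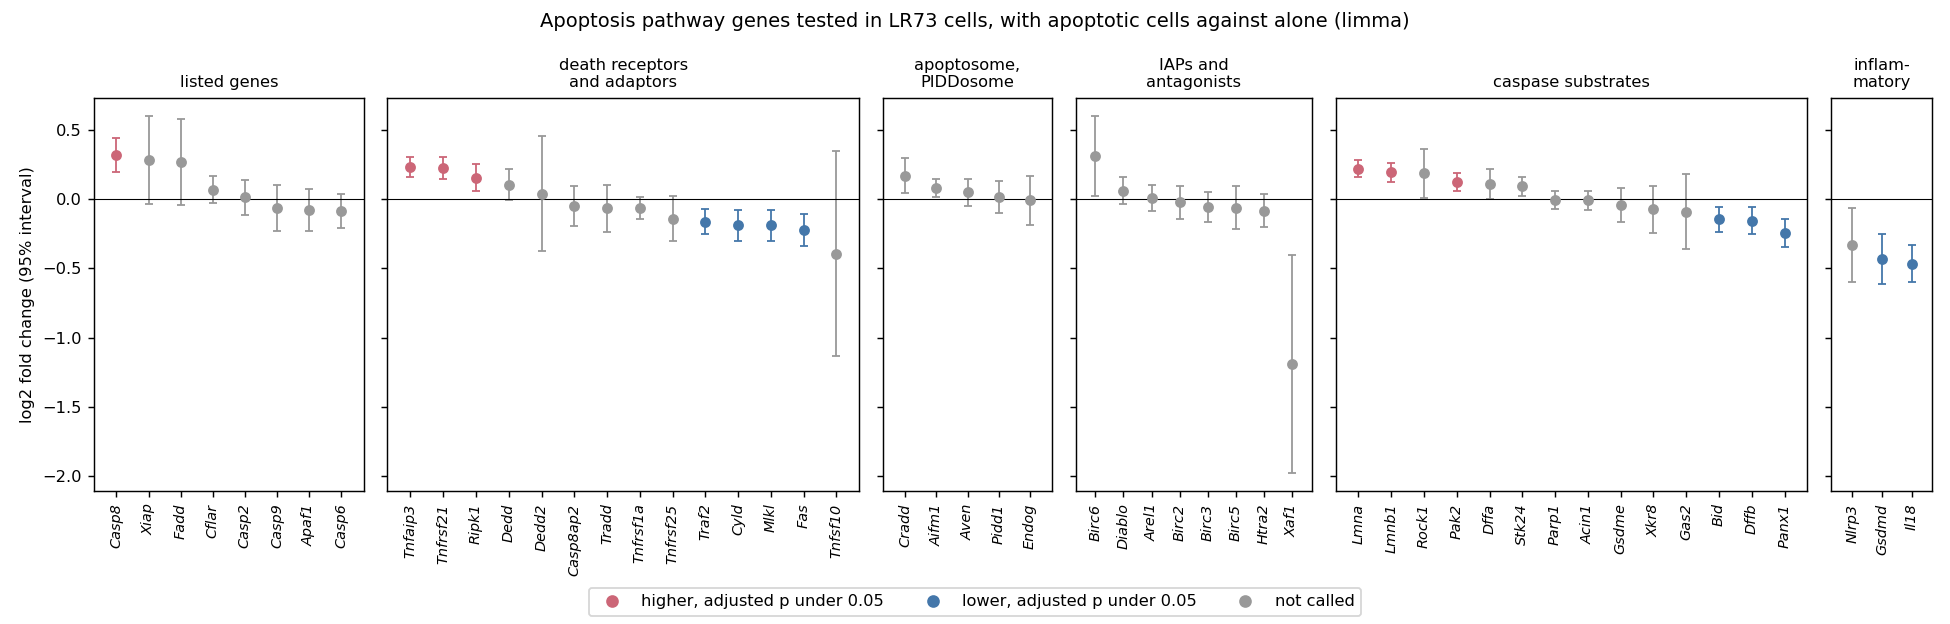
Log2 fold change with apoptotic cells against alone (limma, vertical axis) with its 95% interval for the 8 genes and the tested genes of 5 further lists, coloured by whether the adjusted p was under 0.05. Casp8 is the 1 called gene of the first panel, and no apoptosome gene or inhibitor of apoptosis gene was called.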

How the data were processed

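RNA-seq of 8 LR73 libraries was analysed. Per the submitters' processing notes the tools were FastQC, STAR, featureCounts and DESeq2, with no versions. Build, annotation and the treatment of human reads: not given in the sources used here. The authors deposited 1 table whose signal columns are, by their values, counts per gene over a size factor. In every library 100% of values were whole multiples of 1 read within 0.01 reads. The deposited log2 fold changes, test scores and p-values were the authors' own, per the file headers. Columns were matched by replicate number and the letters AC, and the prefix GFP in them is not explained by the labels. An unnamed row (0.14 to 0.176% of reads) was left out.

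limma 3.58.1 (R 4.3.3, trend) was run on log2(normalized count + 1) where that count averaged 10 or more, with group as the only term and Benjamini-Hochberg adjustment. Alternatives were TMM and upper-quartile scaling, pseudocounts, filters, each library left out, a replicate block, array weights, and, on recovered reads, edgeR 4.0.16 (838 higher, 726 lower) and DESeq2 1.42.0 (878 higher, 710 lower). Matching Casp9 by gene ID and the Fadd to Casp8 ratio were added after seeing the data. The fits were tested on simulated data. Figures used matplotlib 3.10.9. Genes, lists and tests were chosen with earlier results of these data known. Named were all 8 genes, up to 4 called genes per list with the smallest adjusted p or else the 1 with the smallest, and the 3 genes most like each called member. Outside this rule Nlrp3, Pidd1 and Aifm1 were named too. So were genes with few or no reads, and the genes described above as picked after their values were seen. Myeloid and epithelial markers were counted too: of 8 matched myeloid markers 3 were tested and none was called by limma, and of 9 epithelial ones Cdh1 alone was tested and was lower (limma adjusted p = 0.0439), a call lost with DESeq2 (0.0954), with no filter, with the replicate block (0.101) and in 7 of 8 fits with a library left out. Some results are not reported here. No genome was used. Levels per coding length were not computed.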

Additional observations from a re-analysis of the deposited data

Results flagged for a closer look

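In 40 groups of 4 libraries (8 genes of the set and 12 named pathway genes, both conditions), 3 had 1 library whose gap to its nearest neighbour took up more of the group's range than Dixon's 95% critical value for 4 samples, where chance flags about 1 in 20 groups. Fadd in the alone group was low in library 1, with a gap of 0.849 of the range, and Panx1 was high in the same library, with a gap of 0.876. Casp6 in the co-cultures was low in library 1, at 282.5 against 301.4 to 305.2 normalized counts, with a gap of 0.831.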

How the results depend on the processing

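Of 144 recomputed log2 fold changes of the 8 genes, 140 kept their direction and their side of the threshold. The exceptions were Casp2, whose value ran from -0.0177 to 0.0569 with a library left out, and Apaf1, which ran from -0.1352 to -0.0178 and passed without alone library 1. Casp8 was called in all 18 alternatives, and 0 of the 8 genes were called lower except without alone library 1, when 1 was. The log2 ratios of Cflar to Casp8, Apaf1 to Casp9 and Xiap to Casp9 moved by less than the spread between libraries. Other pathway genes called higher numbered 6, with 11 under array weights and 4 to 10 with a library left out, and those called lower numbered 9, with 5 under the replicate block and 3 to 11 with a library left out. Over all genes, 858 higher and 716 lower calls became 1804 and 1674 under array weights, 498 and 400 under the replicate block, and 416 to 1811 and 356 to 1694 with a library left out, the highest of these without alone library 1 and the lowest without co-culture library 1. The numbers were not taken as pairs because the labels give no shared batch for a number. Same-numbered libraries did not deviate together (correlations of -0.026, 0.068, 0.011 and -0.09 for numbers 1 to 4). With the replicate block the limma adjusted p was 0.0765 for Pak2, 0.0868 for Ripk1, 0.0596 for Cyld, 0.0701 for Mlkl, 0.087 for Dffb and 0.0619 for Bid. For the 12 pathway genes named by rule, 196 of 215 recomputed values kept their call, 13 lost it and 6 gained it, with no change of sign. Left out of these values were Ripk1, Cyld, Mlkl, Dffb, Bid, Birc6, Pidd1, Aifm1 and Nlrp3. The lost calls of Ripk1, Cyld, Mlkl, Dffb and Bid therefore come on top of the 13. Pidd1 kept its sign in 6 of 8 fits with a library left out. The cause of these changes was not tested. Genes at 0 reads and those with low counts, such as Xaf1, are limited by depth.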
